A study of Homo sapiens with 9 samples.

Results

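Semaphorins, their plexin receptors and the neuropilin co-receptors form a family of 31 genes in the count table, which holds 58051 genes in all. They were found by symbol, as all genes named SEMA3 to SEMA7, PLXNA to PLXND, NRP1 or NRP2, and comprise 20 semaphorins, 9 plexins and 2 neuropilins. RNA was measured in A431 cells, a human epidermoid carcinoma line with endogenous mutant p53, in 3 poly(A) libraries for each of 3 groups. A431 parental (mutp53) cells were not edited, A431 Ctrl (mutp53) cells had been through CRISPR with an empty vector and keep mutant p53, and A431 p53 KO cells had been through CRISPR against p53. Cells were raised from single colonies in DMEM with 10% FBS and harvested 48 h after settling in 6-well plates, and the labels do not say how many clones stand behind a group or whether the 3 libraries came from separate cultures. The p-values therefore measure the spread between these libraries, which may be technical. The study's purpose was to find transcripts that differ once mutant p53 is lost, so p53 KO cells were set against both controls, and Ctrl cells against parental cells.

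Semaphorins are secreted or membrane-bound guidance cues, first known from growing axons and since found in vessels, immune cells and epithelia. They act through plexins, whose intracellular part regulates small GTPases, integrin adhesion and the actin cytoskeleton. Most secreted class 3 semaphorins do not bind plexins strongly alone and use NRP1 or NRP2 as the binding co-receptor, while SEMA3E can bind PLXND1 directly. The neuropilins also bind VEGF family ligands.

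Sequence before a RefSeq transcript start is shown for the 2 genes that the pairing of ligands with receptors was built around, PLXND1 and SEMA3F, and for NRP2, the co-receptor of SEMA3F, since the first pair were lower and NRP2 was higher in p53 KO cells. Each run covers 200 bases, from 250 to 51 bases before the start of the most upstream RefSeq transcript (GRCh38.p14), 5′ to 3′ on the gene's strand, and no exon of GENCODE release 44 overlaps it. Capitals mark the GC box GGGCGG on either strand. The windows lie at chr3:129606727-129606926 on the minus strand for PLXND1, chr3:50154808-50155007 on the plus strand for SEMA3F and chr2:205682251-205682450 on the plus strand for NRP2. The NRP2 window lies within the gene as GENCODE release 44 draws it, from 205681990, and between its exons, so it is not upstream of that gene model.
PLXND1: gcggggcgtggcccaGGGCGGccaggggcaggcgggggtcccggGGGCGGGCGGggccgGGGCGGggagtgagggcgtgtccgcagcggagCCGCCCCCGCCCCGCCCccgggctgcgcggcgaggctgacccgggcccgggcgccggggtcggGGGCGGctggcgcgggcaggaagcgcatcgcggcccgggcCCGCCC
SEMA3F: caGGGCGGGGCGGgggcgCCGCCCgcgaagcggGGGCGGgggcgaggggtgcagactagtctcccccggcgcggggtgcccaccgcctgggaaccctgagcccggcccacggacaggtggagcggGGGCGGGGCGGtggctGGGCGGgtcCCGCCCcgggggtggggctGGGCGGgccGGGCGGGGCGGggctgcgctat
NRP2: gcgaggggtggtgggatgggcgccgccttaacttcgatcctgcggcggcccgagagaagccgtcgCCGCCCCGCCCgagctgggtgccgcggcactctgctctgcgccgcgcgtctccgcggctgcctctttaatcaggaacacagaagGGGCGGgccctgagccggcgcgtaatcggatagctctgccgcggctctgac
The PLXND1 window held 9 GC boxes, that of SEMA3F 11 and that of NRP2 3, counting both strands and overlapping boxes. Of the 31 genes, 27 had a promoter entry, and 16 of these windows held at least 1 GC box, which 35.0% of all 35114 promoter windows of this length did. A CCAAT box was found in 4 of the 27 (27.4% of all windows), and neither TATAAA (7.63%) nor the E-box CACGTG (4.51%) was found in any. The p53 half-site consensus matched once in SEMA3F and once in SEMA5B (4.51% of all windows held a match). These are matches of letters, with no measurement of binding.

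Library totals ran from 19783778 to 29840452 counts on genes, and 14513 genes passed the filter on low counts. Pearson correlations across genes were 0.986 to 0.996 within groups and 0.963 to 0.985 between groups, and Ctrl replicate 1 stood apart from the other Ctrl libraries. Of 8 squamous epithelial markers 7 were expressed, with KRT14 at no more than 13 counts, and their summed level in CPM (counts scaled to library size) was 16035 to 19264 in parental, 10447 to 12929 in Ctrl and 14927 to 15675 in p53 KO libraries. EGFR dominated that sum, with 169946 to 452758 counts per library where no other marker exceeded 18211, and EGFR was lower in Ctrl than in parental cells (log2FC -0.65, adjusted p = 0.00128). The keratins were mixed. KRT5 was higher in Ctrl than in parental cells (log2FC 0.45, adjusted p = 0.00351), while KRT17 and KRT6A were lower (log2FC -0.63 and -0.40, adjusted p = 0.00502 and 0.0171). KRT6A was higher in p53 KO cells against both controls (log2FC 2.35 and 2.75, adjusted p = 2.14e-07 and 2.39e-08), and KRT17 passed against neither (adjusted p = 0.128 and 0.0528). CDH1 was lower in p53 KO cells against both controls (log2FC -0.32 and -0.33, adjusted p = 0.0245 and 0.014). KRT5 and EPCAM were higher in p53 KO than in parental cells (log2FC 0.43 and 0.23, adjusted p = 0.00387 and 0.0236). Against Ctrl cells neither passed (adjusted p = 0.895 and 0.0996). Summed markers of fibroblasts (7 genes, COL3A1, DCN, LUM and PDGFRA at 0), endothelium (6 genes, KDR at 0), leukocytes (PTPRC and CD3E at 0) and neurons and glia (6 genes, SNAP25, GFAP and SOX10 at 0) each stayed under 5 CPM in every library.

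Of the 31 genes, 22 were expressed enough to be tested, namely 12 semaphorins, 8 plexins and both neuropilins. Each of the 22 had at least 21 counts in every library, so none entered through 1 group only. SEMA4G, SEMA5B and SEMA6A had no count in any library. The other 6 never exceeded 13 counts, and their counts are given further on. A change is called here at an adjusted p of at most 0.05 (edgeR, quasi-likelihood, Benjamini-Hochberg over the 14513 genes tested), and log2 fold changes (log2FC) are given with their standard errors (SE).

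Against parental cells, 12 of the 22 genes changed in p53 KO cells, 4 higher and 8 lower, where 18.1% of all genes tested did (9.77% higher and 8.36% lower). Against Ctrl cells 14 changed, 5 higher and 9 lower, where 29.2% of all genes did (15% higher and 14.2% lower). The same 11 genes of 22 passed in the same direction against both controls, where 11.7% of all genes did. NRP2, SEMA3A, SEMA3B and SEMA6B were higher (4 genes, beside 6.46% of all genes), and PLXNA1, PLXNA3, PLXNC1, PLXND1, SEMA3F, SEMA4A and SEMA6C were lower (7 genes, beside 5.25%). Between the controls, Ctrl against parental, 5 of the 22 changed, where 20.3% of all genes did. SEMA3F and PLXNA1 were higher in Ctrl cells (10.6% of all genes were higher), and SEMA6B, SEMA3C and NRP1 were lower (9.69%). All 4 plexins that changed against both controls were lower. Calls of small size depended on which libraries entered the fit. With only parental and p53 KO cells fitted, 17 genes changed against parental cells, the additional ones being PLXNA2, PLXNB2 and NRP1, lower, and SEMA4B and SEMA4C, higher (adjusted p = 0.00644 to 0.0295), and these 5 also passed when Ctrl replicate 1 alone was left out (adjusted p = 0.0078 to 0.0306). The median size of the log2FC, regardless of sign, was 0.37 against parental and 0.52 against Ctrl cells for the 22 genes, beside 0.20 and 0.23 for all genes tested, and 0.16 beside 0.23 between the controls. Most of these changes were small. A log2FC beyond 1 in either direction, added to the adjusted p, was met by 3 genes against parental (3.63% of all genes), 6 against Ctrl (6.5%) and 2 against both, PLXND1 and NRP2 (2.32%). Between the controls, edgeR gave 0 genes past 1 (4.18% of all genes) and DESeq2 also 0, while 8 of the 22 had an unadjusted p under 0.05 in edgeR's test. The share of all genes at that unadjusted threshold was not counted, so the 8 cannot be read as an excess. The study's figure of 1.5 was met by PLXND1 alone against parental cells (1.95% of all genes), by PLXND1, SEMA3F and SEMA6B against Ctrl cells (3.29%), by PLXND1 against both (1.25%) and by 0 genes between the controls (1.94%).

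**Figure D1:**
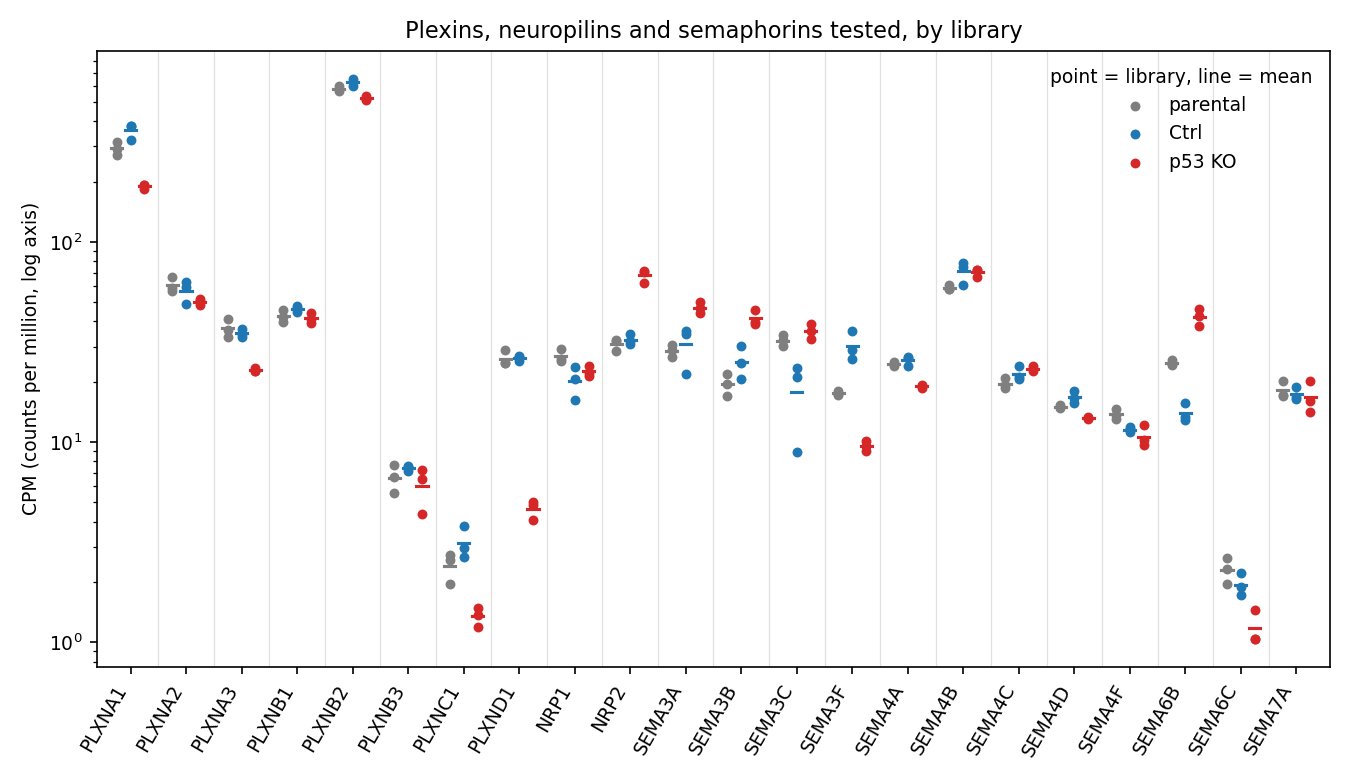
Level of the 22 tested genes in each library, in CPM on a log axis, with parental (grey), Ctrl (blue) and p53 KO (red) libraries as points and group means as lines. PLXND1 lay at 24.7 to 28.7 CPM in the 6 control libraries and at 4.07 to 5.03 CPM in the p53 KO libraries, and NRP2 at 28.4 to 34.5 and 62.3 to 71.1 CPM.

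The plot of levels by library shows where the p53 KO libraries parted from all 6 control libraries. That was so for 13 of the 22 genes, 4 higher and 9 lower, where 22.0% of all genes tested were separated in this way (11.9% higher and 10.1% lower). Besides the 11 genes named above, PLXNB2 and SEMA4D lay lower in all 3 p53 KO libraries.

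PLXND1, the receptor of SEMA3E and a receptor of SEMA4A and, with neuropilins, of SEMA3C, changed most. This gene (ENSG00000004399, chromosome 3 of GRCh38, 129555214 to 129606676) had 28.7, 24.9 and 24.7 CPM in the parental libraries, 25.5, 27.0 and 26.6 in the Ctrl libraries and 5.03, 4.87 and 4.07 in the p53 KO libraries. The 6 control libraries lay close together and no p53 KO library came near them. Its level in p53 KO cells was 18.0% of that in parental cells (log2FC -2.48, SE 0.11, adjusted p = 3.25e-07) and 17.8% of that in Ctrl cells (log2FC -2.49, SE 0.11, adjusted p = 9.09e-08). Between the controls the log2FC was 0.02 (95% interval -0.19 to 0.22, adjusted p = 0.908). PLXND1, SEMA3F and SEMA6B, and outside the family VEGFC and KRT6A, are among the genes that the study had singled out on these same libraries, so their changes are not independent evidence. The study describes its list as past a log2FC of 1.5 against both controls. Here SEMA3F, SEMA6B and VEGFC stayed short of 1.5 against parental cells (log2FC -0.87, 0.76 and 1.47).

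The other plexins changed less, and none was higher. PLXNA1 (ENSG00000114554), a signalling partner of neuropilins for class 3 semaphorins, had 273 to 316 CPM in parental, 324 to 379 in Ctrl and 184 to 192 in p53 KO libraries. It was lower in p53 KO cells against parental (log2FC -0.63, SE 0.08, adjusted p = 0.000426) and against Ctrl cells (log2FC -0.93, SE 0.08, adjusted p = 1.45e-05), and higher in Ctrl than in parental cells (log2FC 0.30, SE 0.08, adjusted p = 0.0258). The 3 groups did not overlap for PLXNA1. PLXNA3, a partner of NRP2 in SEMA3F signalling, had 33.5 to 41.3, 33.6 to 36.8 and 22.6 to 23.5 CPM in parental, Ctrl and p53 KO libraries, with log2FC of -0.70 and -0.61 against parental and Ctrl cells (adjusted p = 0.000426 and 0.000456 in edgeR's test). Here the controls overlapped and the p53 KO libraries lay below both.

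PLXNC1, the receptor of SEMA7A, was the least abundant plexin tested, with 1.95, 2.58 and 2.72 CPM in parental, 2.96, 3.79 and 2.67 in Ctrl and 1.48, 1.37 and 1.19 in p53 KO libraries. These values rest on 24 to 108 counts per library. Its log2FC was -0.82 against parental (SE 0.21, adjusted p = 0.0184) and -1.21 against Ctrl cells (SE 0.20, adjusted p = 0.000883), and the adjusted p against parental cells passed 0.05 when parental replicate 2 or 3 or p53 KO replicate 2 or 3 was left out (0.0553 to 0.0704). PLXNB2, a receptor of class 4 semaphorins, was lower against Ctrl cells (log2FC -0.26, SE 0.06, adjusted p = 0.00753). Against parental cells its log2FC of -0.16 did not pass (adjusted p = 0.0973), while DESeq2 gave an adjusted p of 0.0434. PLXNA2, PLXNB1 and PLXNB3 passed in no comparison with all 9 libraries fitted, with log2FC from -0.28 to 0.16.

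On a scale per length (FPKM, CPM per kilobase of the gene's exons), PLXNB2 was the most abundant plexin in every group, at 80.1 ± 2.35 FPKM in parental cells, 86.0 ± 3.83 in Ctrl cells and 71.7 ± 1.53 in p53 KO cells (SD, n = 3). It made up 65.7%, 64.2% and 71.8% of the FPKM summed over the 9 plexins. PLXNA1 came second, with 26.1 ± 1.94, 32.1 ± 2.80 and 16.8 ± 0.39 FPKM. The remaining plexins stayed below 5 FPKM each, and PLXNA2 and PLXNB1 overlapped in parental cells. PLXND1 ranked above PLXNB3 in both controls and below it in p53 KO cells, where it held 0.488% of the summed plexin FPKM against 2.24% in parental and 2.06% in Ctrl cells. The sum itself was 122 ± 4.88 FPKM in parental cells, 134 ± 1.90 in Ctrl cells and 99.9 ± 1.88 in p53 KO cells. Using the longest transcript as the length kept PLXNB2 and PLXNA1 first and second and kept the order of PLXNB3 and PLXND1 in p53 KO cells, while it exchanged PLXNA2 with PLXNB1 in parental cells and PLXNA3 with PLXND1 in both controls.

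Of the co-receptors, NRP2 passed the test in p53 KO cells against both controls, and NRP1 passed against neither with all 9 libraries fitted. NRP2 (ENSG00000118257, chromosome 2, 205681990 to 205798133), which binds SEMA3F, SEMA3B, SEMA3C and VEGFC, had 32.1, 28.4 and 32.2 CPM in parental, 31.8, 31.1 and 34.5 in Ctrl and 71.1, 70.5 and 62.3 in p53 KO libraries. The control libraries overlapped and all 3 p53 KO libraries stood well above them. The rise was 2.20-fold against parental (log2FC 1.14, SE 0.09, adjusted p = 1.49e-05) and 2.09-fold against Ctrl cells (log2FC 1.07, SE 0.09, adjusted p = 9.24e-06). NRP1 (ENSG00000099250), the co-receptor of SEMA3A, had 25.4 to 29.2 CPM in parental, 16.2 to 23.7 in Ctrl and 21.3 to 24.0 in p53 KO libraries, with p53 KO libraries overlapping those of Ctrl cells. Its log2FC was -0.25 against parental (95% interval -0.53 to 0.03, adjusted p = 0.198) and 0.15 against Ctrl cells (-0.13 to 0.44, adjusted p = 0.408), and the first passed without Ctrl cells in the fit (adjusted p = 0.0273) or without Ctrl replicate 1 (adjusted p = 0.0306). Per length, NRP2 stood at 0.958 ± 0.066 times the level of NRP1 in parental, 1.36 ± 0.23 times in Ctrl and 2.51 ± 0.23 times in p53 KO cells (ratio of FPKM, SD, n = 3). With the longest transcript as the length, the means in parental cells were 4.64 FPKM for NRP2 and 4.56 for NRP1, so their order there rests on the length used.

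The secreted class 3 ligands moved in both directions. SEMA3F (ENSG00000001617, chromosome 3, 50155045 to 50189075), a repellent cue that acts through NRP2 with PLXNA1 or PLXNA3, had 17.3, 17.9 and 17.3 CPM in parental, 35.8, 28.9 and 25.8 in Ctrl and 10.1, 8.98 and 9.53 in p53 KO libraries. The groups did not overlap, and the controls themselves lay apart. SEMA3F was lower in p53 KO cells against parental (log2FC -0.87, SE 0.12, adjusted p = 0.000663) and against Ctrl cells (log2FC -1.66, SE 0.12, adjusted p = 3.52e-06), and it was higher in Ctrl than in parental cells (log2FC 0.78, SE 0.12, adjusted p = 0.00106).

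SEMA3B (ENSG00000012171, chromosome 3, 50267558 to 50277546), another neuropilin ligand, had 19.5, 21.9 and 17.0 CPM in parental, 30.2, 24.7 and 20.7 in Ctrl and 40.0, 39.0 and 45.4 in p53 KO libraries. All 3 p53 KO libraries were above all controls, and parental and Ctrl libraries overlapped. Its log2FC was 1.09 against parental (SE 0.14, adjusted p = 0.000414) and 0.72 against Ctrl cells (SE 0.14, adjusted p = 0.00245). SEMA3B and SEMA3F lie 78482 bases apart on the same strand and changed in opposite directions against both controls.

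SEMA3A (ENSG00000075213), the ligand of NRP1 with PLXNA receptors, had 26.5 to 30.4 CPM in parental, 21.9 to 35.8 in Ctrl and 44.0 to 49.9 in p53 KO libraries. It was higher against parental (log2FC 0.72, SE 0.16, adjusted p = 0.00882) and against Ctrl cells (log2FC 0.60, SE 0.16, adjusted p = 0.013). The call against Ctrl cells ended without p53 KO replicate 1 (adjusted p = 0.0515).

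SEMA3C (ENSG00000075223), which uses both neuropilins and PLXND1, had 32.2, 30.1 and 34.0 CPM in parental, 8.87, 21.1 and 23.4 in Ctrl and 36.0, 39.0 and 32.8 in p53 KO libraries. Ctrl libraries lay below the other 2 groups, which overlapped, and Ctrl replicate 1 was far below the rest of its group, with 174 counts beside 600 and 613. The log2FC of p53 KO cells was 1.00 against Ctrl (SE 0.26, adjusted p = 0.0124) and 0.16 against parental cells (adjusted p = 0.692). Without Ctrl replicate 1 the log2FC against Ctrl cells was 0.70.

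**Figure D2:**
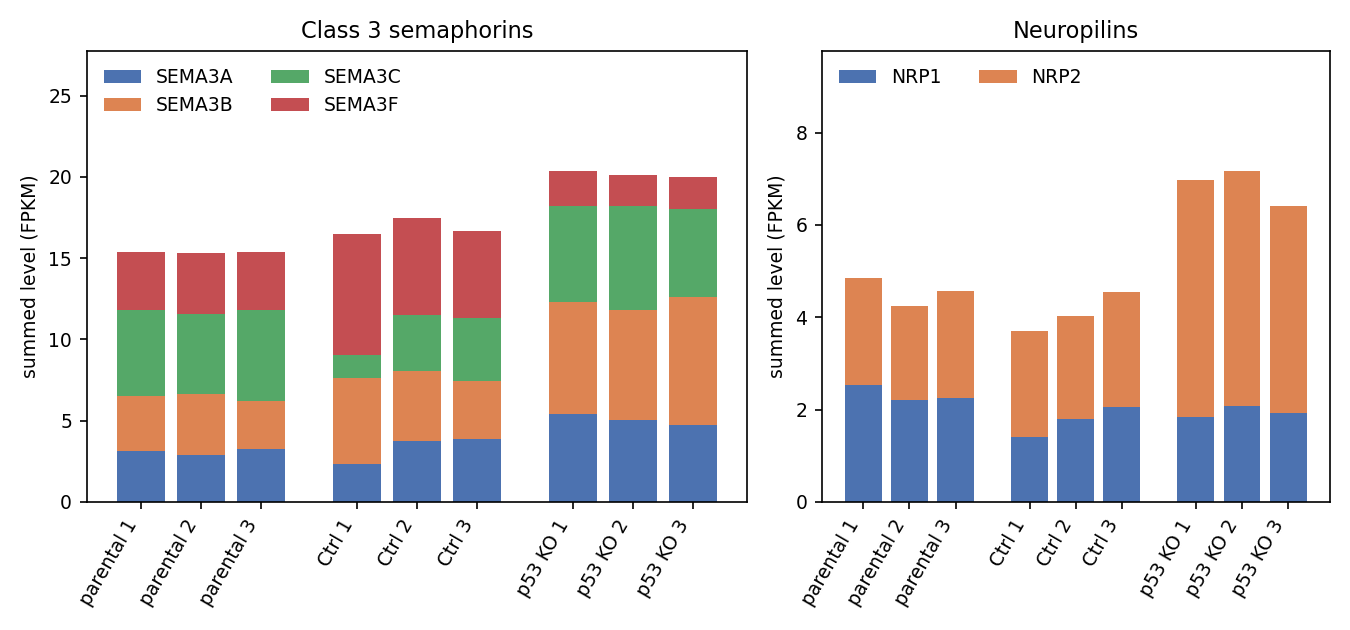
Levels per length (FPKM) of the 4 expressed class 3 semaphorins (left) and of the neuropilins (right), stacked for each library of the parental, Ctrl and p53 KO groups. SEMA3F made up 23.5% of the class 3 sum in parental cells, 37.1% in Ctrl cells and 9.82% in p53 KO cells, and NRP2 48.9%, 57.4% and 71.4% of the neuropilin sum.

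The stacked plot shows how the mix of ligands shifted. Summed over class 3, the level was 15.4 ± 0.10 FPKM in parental cells, 16.9 ± 0.55 in Ctrl cells and 20.1 ± 0.18 in p53 KO cells (SD, n = 3). SEMA3B held 21.9%, 25.9% and 35.7% of this sum and SEMA3C 34.1%, 17.2% and 29.3%. The FPKM of SEMA3B was 0.930 ± 0.099 times that of SEMA3F in parental, 0.697 ± 0.023 times in Ctrl and 3.64 ± 0.34 times in p53 KO cells. With the longest transcript as the length, SEMA3B stood above SEMA3F in parental cells (5.93 ± 0.74 beside 4.85 ± 0.10 FPKM), so that direction rests on the length used. In p53 KO cells SEMA3B was thus the most abundant and SEMA3F the least abundant of the 4 expressed class 3 ligands, with either choice of gene length. SEMA3C and SEMA3A, between them, overlapped with all exons of the gene as the length. With the longest transcript they were at 7.38 ± 0.64 and 5.79 ± 0.37 FPKM.

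Membrane-bound and GPI-anchored semaphorins of classes 4, 6 and 7 were led by SEMA4B, at 8.44 ± 0.25 FPKM in parental cells, 10.2 ± 1.35 in Ctrl cells and 10.1 ± 0.50 in p53 KO cells, where its libraries overlapped those of SEMA6B at 8.96 ± 0.88 FPKM. SEMA4B passed in no comparison with all 9 libraries fitted, and between the controls it passed without Ctrl replicate 3 (adjusted p = 0.00645) and in DESeq2 (adjusted p = 0.0499). SEMA6B (ENSG00000167680, chromosome 19, 4542593 to 4581776), a transmembrane ligand of PLXNA4, had the largest rise among the tested ligands against Ctrl cells. It had 24.6, 24.2 and 25.7 CPM in parental, 15.6, 13.4 and 12.9 in Ctrl and 37.8, 42.6 and 46.1 in p53 KO libraries. The 3 groups did not overlap. Its log2FC was 0.76 against parental (SE 0.10, adjusted p = 0.000426) and 1.60 against Ctrl cells (SE 0.10, adjusted p = 1.63e-06), while Ctrl cells were lower than parental cells by 0.83 on the log2 scale (SE 0.10, adjusted p = 0.000339).

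SEMA6C, a related transmembrane semaphorin, was scarce, with 1.96 to 2.63 CPM in parental, 1.72 to 2.21 in Ctrl and 1.04 to 1.45 in p53 KO libraries, or 21 to 61 counts per library. Its log2FC was -0.96 against parental (adjusted p = 0.00716) and -0.71 against Ctrl cells (adjusted p = 0.0227), and the second ended without p53 KO replicate 1, p53 KO replicate 3 or Ctrl replicate 3 (adjusted p = 0.065 to 0.0961). SEMA4A, a ligand of PLXND1 with roles in immune cells, was lower by 0.37 and 0.43 on the log2 scale (adjusted p = 0.00651 and 0.00151), with 18.6 to 19.4 CPM in p53 KO libraries against 24.0 to 26.6 in the controls. SEMA4D, the ligand of PLXNB1 and PLXNB2, was lower against Ctrl cells (log2FC -0.34, adjusted p = 0.00983), and its log2FC of -0.18 against parental cells did not pass (adjusted p = 0.153). SEMA4F was lower against parental cells (log2FC -0.37, adjusted p = 0.0301), a call that ended without parental replicate 1, 2 or 3 or p53 KO replicate 2 or 3 (adjusted p = 0.057 to 0.118). For SEMA4F against Ctrl cells the log2FC was -0.11 (adjusted p = 0.475). SEMA4C, the ligand of PLXNB2, and SEMA7A, the ligand of PLXNC1, passed in no comparison with all 9 libraries fitted, with log2FC from -0.12 to 0.25.

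**Figure D3:**
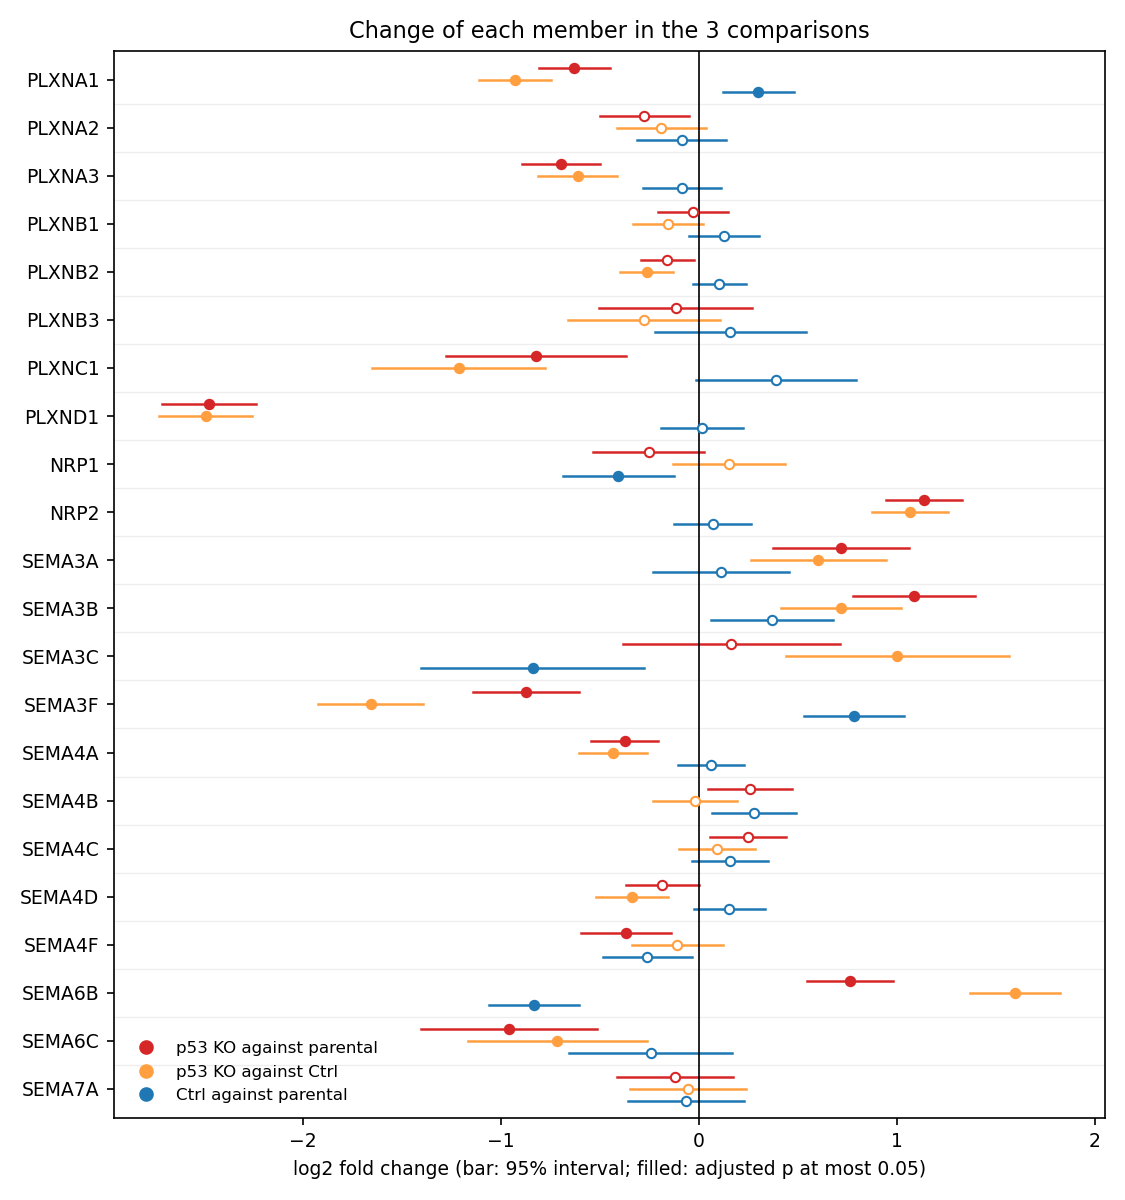
Log2 fold change of the 22 tested genes for p53 KO against parental (red), p53 KO against Ctrl (orange) and Ctrl against parental (blue), with 95% intervals and filled points where the adjusted p was at most 0.05. PLXND1 lies near -2.5 against both controls with no shift between the controls, whereas SEMA3F, SEMA6B and PLXNA1 have controls that differ.

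The plot of changes separates genes whose controls were alike from those whose controls differed. For PLXND1 and NRP2 the fold changes against parental and Ctrl cells differed by no more than 0.07 on the log2 scale. For SEMA3F, SEMA6B and PLXNA1, Ctrl cells and p53 KO cells had moved from parental cells in opposite directions, so the comparison with Ctrl cells gave the larger value. Both comparisons share the p53 KO libraries. With all 9 libraries fitted, NRP1 passed between the controls alone, and SEMA3C in the comparisons that involve Ctrl cells. Both calls between the controls, -0.41 for NRP1 (adjusted p = 0.0447) and -0.84 for SEMA3C (adjusted p = 0.0408), were just inside the threshold. Each was lost (adjusted p = 0.0532 to 0.158) when any parental or p53 KO library, or Ctrl replicate 2, was left out. The call of PLXNA1 between the controls was lost without parental replicate 2 or 3 or Ctrl replicate 2 (adjusted p = 0.0775 to 0.104).

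Reading ligands with receptors, 26 established ligand-receptor pairs of the family were listed, and in 16 both partners were tested. Against both controls, SEMA3F fell together with its plexins PLXNA1 and PLXNA3, and SEMA4A together with PLXND1. In the same cells NRP2, the binding co-receptor of SEMA3F, rose, as did SEMA3B, a second ligand of NRP2. SEMA3A rose while PLXNA1 fell. For SEMA7A and PLXNC1 only the receptor passed. SEMA3C was higher and PLXND1 lower against Ctrl cells, and against parental cells only PLXND1 passed. Counted over the 16 pairs, both partners were lower in 3 and both higher in 1 against parental cells, both passed in opposite directions in 2, only 1 partner passed in 6 and neither in 4. Against Ctrl cells both were lower in 4, both higher in 2, opposite in 3, and 7 had only 1 partner past the test. These pairs share genes, so they are not independent of each other. In RNA from a bulk culture, fewer cells that express a gene and less RNA per cell cannot be told apart, and a ligand and its receptor need not come from the same cells.

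Several ligands of these receptors were scarce. SEMA3E, the direct ligand of PLXND1, never exceeded 2 counts, and SEMA3D and SEMA6D never exceeded 1. PLXNA4, a receptor of SEMA3A and SEMA6B, had 0, 1 and 1 counts in parental, 0, 0 and 1 in Ctrl and 4, 3 and 3 in p53 KO libraries. SEMA5A, a ligand of PLXNB3, had no count in any of the 6 control libraries and 5, 2 and 13 in p53 KO libraries. The opposite held for SEMA3G, a ligand of NRP2, with 9, 3 and 13 counts in parental, 1, 5 and 2 in Ctrl and none in p53 KO libraries. A count of 0 allows up to 3 counts per library, and these counts cover counting error only. When the filter was lowered to 1 count in any library, SEMA3G was lower in p53 KO cells against parental (adjusted p = 3.57e-05) and Ctrl (adjusted p = 0.0256), SEMA5A was higher (adjusted p = 0.000763 and 0.000456), and PLXNA4 did not pass (adjusted p = 0.296 and 0.116). SEMA5A entered that fit through p53 KO libraries alone and SEMA3G through control libraries alone. Their direction was thus fixed by how they entered, and their calls are no support for a change. In that fit adjusted p-values moved in both directions against Ctrl cells, from 0.0124 to 2.09e-12 for SEMA3C and from 0.00753 to 0.0148 for PLXNB2.

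Position was compared as well, since genes next to some of the 22 moved with them. Within 5 Mb of PLXND1, 61 of 65 other tested genes were lower in p53 KO than in parental cells, with a median log2FC of -0.36, and 62 of 65 were lower than in Ctrl cells, with a median of -0.52. PLXNA1 lies 2517824 bases from PLXND1 on chromosome 3, and 63 of the 71 genes around it were lower than in parental cells (median -0.32, and -0.52 against Ctrl cells). The fall of PLXND1 was far beyond these medians, and only 1.54% of its neighbours, 1 gene, fell further, whereas 12.7% of the neighbours of PLXNA1 did so against parental and 15.5% against Ctrl cells. The controls differed in this region too. In Ctrl cells, 57 of the 71 genes around PLXNA1 were higher than in parental cells (median 0.25, beside 0.30 for PLXNA1). Around PLXND1, 50 of 65 were higher in Ctrl than in parental cells (median 0.21, beside 0.02 for PLXND1). On chromosome 7, all 11 genes around SEMA3A were higher than in parental cells (median 0.36) and in Ctrl cells (median 0.59, beside 0.60 for SEMA3A itself). Around SEMA3C, 22 of 23 genes were higher than in parental cells (median 0.39). Around NRP1, 23 of 30 genes were lower than in parental cells (median -0.37, beside -0.25 for NRP1) and 21 lower than in Ctrl cells (median -0.15). Around PLXNB2, 46 of 57 were lower than in parental cells (median -0.23, beside -0.16 for PLXNB2), with a median of -0.02 against Ctrl cells. Within 10 Mb of PLXNB2, however, 85 of 121 genes were lower than in Ctrl cells (median -0.21, beside -0.26 for PLXNB2). The windows of PLXND1 and PLXNA1 overlap, as do those of SEMA3A and SEMA3C and those of SEMA3F and SEMA3B. Genes that lie in both windows are counted in each, so these counts are not separate observations. Whether the shift of the surrounding genes has a part in the values of PLXND1, PLXNA1, SEMA3A, SEMA3C, NRP1 and PLXNB2 was not tested. No shift of this size was seen around SEMA3F and SEMA3B (medians 0.03 against parental and -0.03 against Ctrl cells over 127 and 126 genes) or NRP2 (-0.06 and 0.06 over 54 genes). Around SEMA6B the medians were also small (0.10 and -0.09 over 201 genes), but the split was uneven. There 135 genes were higher than in parental cells and 124 lower than in Ctrl cells. In Ctrl cells 149 of the 201 were higher than in parental cells (median 0.16, beside -0.83 for SEMA6B).

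**Figure D4:**
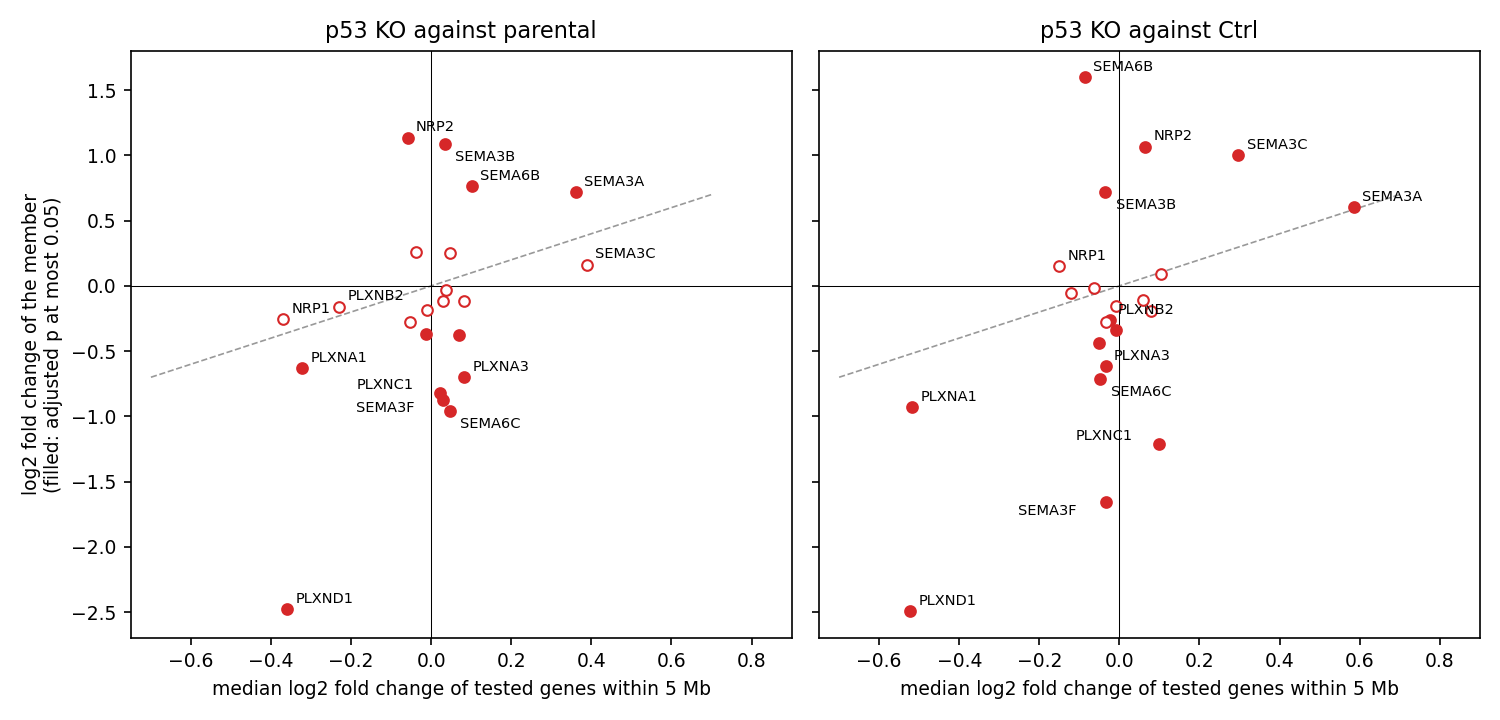
Log2 fold change of each tested gene of the family (vertical) against the median log2 fold change of the other tested genes within 5 Mb (horizontal), for p53 KO against parental (left) and Ctrl (right), with filled points at an adjusted p of at most 0.05 and the line of equal values dashed. PLXND1 lies far below the line at a median of -0.36 and -0.52, SEMA3A lies on it against Ctrl cells, and NRP2, SEMA3B, SEMA3F and SEMA6B stand near a median of 0.

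The plot against neighbours shows that the changes of NRP2, SEMA3B, SEMA3F and SEMA6B stood apart from genes around them, and that those of PLXNA1 and SEMA3A were nearer to their surroundings.

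Beyond the family, 77 genes of the pathway were listed by role, and 55 were tested. Of these, 18 changed against parental (5 higher and 13 lower, 32.7%), 24 against Ctrl (8 higher and 16 lower, 43.6%) and 13 the same way against both (4 higher and 9 lower, 23.6%). Among all genes tested the shares were 18.1%, 29.2% and 11.7%. The count against parental cells was 34 when Ctrl replicate 1 was left out, and that between the controls fell from 15 to 8 without parental replicate 1 or 3 and to 9 without parental replicate 2. Of ligands that neuropilins bind, VEGFC, a lymphatic growth factor that binds NRP2, was higher by 1.47 against parental (adjusted p = 4.82e-06) and by 2.46 against Ctrl cells (adjusted p = 7.01e-08) on the log2 scale. It had 421 to 625 counts in parental, 213 to 299 in Ctrl and 1312 to 1672 in p53 KO libraries, so no p53 KO library overlapped a control. VEGFA, a ligand of NRP1, passed against neither control (adjusted p = 0.0717 and 0.333). PGF was higher against Ctrl cells (log2FC 0.92, adjusted p = 0.000291) and did not pass against parental cells (adjusted p = 0.389), and VEGFB passed against neither (adjusted p = 0.0902 and 0.335). The VEGF receptors KDR and FLT4 were at 0 in every library. FLT1, too scarce to be tested, had 0 to 1 counts in parental, 0 in Ctrl and 1 to 4 in p53 KO libraries.

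Among receptor partners, MET, the HGF receptor that associates with plexins of class B, was lower against both controls (log2FC -1.27 and -0.94, adjusted p = 0.000426 and 0.00137), and HGF itself was at 0. ERBB2 and EGFR, receptor kinases that can also associate with plexins or neuropilins, did not pass against parental cells (adjusted p = 0.257 and 0.126), and against Ctrl cells ERBB2 was lower (log2FC -0.57, adjusted p = 0.000144) and EGFR higher (log2FC 0.42, adjusted p = 0.00846). ITGB1, the integrin beta 1 chain bound by SEMA7A, was lower by 0.75 and 0.61 on the log2 scale (adjusted p = 0.00112 and 0.00197). Its partner ITGA1 was lower against parental cells (log2FC -1.0, adjusted p = 0.0044) and had a log2FC of -0.23 against Ctrl cells (adjusted p = 0.455). Downstream of the receptors, DPYSL2 (CRMP2), which carries the SEMA3A signal to microtubules, was higher by 1.11 and 1.15 (adjusted p = 9.53e-06 and 2.81e-06), from 551 to 846 counts in the controls to 1232 to 2029 in p53 KO libraries. MICAL1, an actin-oxidizing enzyme bound by PLXNA receptors, was lower by 0.75 and 0.64 (adjusted p = 0.00323 and 0.00491), and the focal adhesion kinase PTK2 by 0.59 and 0.61 (adjusted p = 0.00045 and 0.000175). Its relative PTK2B was higher by 0.81 and 0.47 (adjusted p = 0.00022 and 0.0029). FYN, a kinase in SEMA3A signalling, was lower than in parental cells (log2FC -0.83, adjusted p = 0.00184) and higher than in Ctrl cells (log2FC 0.67, adjusted p = 0.00631). Of 19 small GTPases and their regulators tested, 2 passed the same way against both controls (10.5%), no larger a share than the 11.7% of all genes. RAC1 was higher by 0.24 and 0.23 (adjusted p = 0.024 and 0.0183) and RND3, which binds plexins, lower by 0.49 and 0.58 (adjusted p = 0.004 and 0.000765). ARF6 was higher against parental cells (log2FC 0.35, adjusted p = 0.00606) and did not pass against Ctrl cells (adjusted p = 0.0618). RHOA passed against neither (adjusted p = 0.607 and 0.728). Of 6 tested convertases and sheddases, which cut semaphorins, MMP14 alone was lower against both controls (log2FC -0.26 and -0.36, adjusted p = 0.0447 and 0.0059). That is 16.7% of this short list, beside 11.7% of all genes that passed the same way against both.

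Some of the exons of these genes overlap exons of others, and the strand setting of the counting is not given in the sources used here. PLXNC1 shares 177 bases with CEP83 on the opposite strand, PLXNA3 5 bases with LAGE3, PLXNB3 1432 bases with SRPK3, and SEMA4G, at 0 counts, 1215 bases with MRPL43. The antisense transcripts of SEMA3F, SEMA3B and NRP2 had at most 2 counts in any library.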

How the data were processed

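Per the labels and the paper's methods, strand-specific poly(A) libraries were aligned by the authors with STAR 2.5.1b to GRCh38 and counted per gene with featureCounts on Ensembl release 85. The authors deposited whole-number counts without normalization for 58051 genes, and every column was matched to 1 of the 9 libraries by its name. The genes, the pairs and the pathway and marker lists were chosen with earlier results of these data known. All genes tested were fitted together, and only the family and its pathway are printed.

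Counts were analysed with edgeR 4.0.16 (R 4.3.3): filterByExpr by group at a minimum count of 10, TMM normalization, 1 mean per group over all 9 libraries, the quasi-likelihood test and Benjamini-Hochberg adjustment. SE follow from the F statistic. CPM are TMM-scaled and FPKM divide them by the union of exons in GENCODE release 44. Genes described in full were PLXND1, SEMA3F and each gene that passed with a log2 fold change past 1 in any comparison, and from each pathway list the genes past 1 against both controls and up to 4 more with the smallest adjusted p against parental cells. RHOA, KDR, FLT1, FLT4 and HGF were added after their values were seen. Alternatives were DESeq2 1.42.0 as the test or for size factors alone, a filter of 1 count in any library or of 10 in all, a replicate block, fits of 2 groups, size thresholds of 1 and 1.5, a window of 10 Mb, the longest transcript, and each library left out. The steps were tested on simulated data. Totals set counting error only. Some genes are not reported here. Figures used matplotlib 3.10.9.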

Additional observations from a re-analysis of the deposited data

Results flagged for a closer look

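3 genes of the family moved from parental cells in opposite directions in p53 KO and in Ctrl cells. They were selected on both changes and on the difference between p53 KO and Ctrl cells, each at an adjusted p of at most 0.05 (edgeR, quasi-likelihood). The same rule was met by 2.51% of all genes tested. The difference on the log2 scale, p53 KO minus Ctrl, was -0.93 for PLXNA1 (adjusted p = 1.45e-05), -1.66 for SEMA3F (adjusted p = 3.52e-06) and 1.60 for SEMA6B (adjusted p = 1.63e-06). 2 genes too scarce to be tested averaged more than 3 counts over the p53 KO libraries and had at most 1 count in any control library. PLXNA4 summed to 10 counts and SEMA5A to 20 counts over the 3 p53 KO libraries, 13 of the latter in p53 KO replicate 3. The share of all untested genes with this pattern was not counted. With the filter at 1 count, PLXNA4 did not pass edgeR's test against parental or Ctrl cells (adjusted p = 0.296 and 0.116).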

How the results depend on the processing

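No log2 fold change of a family gene changed sign while called. Of 990 values of single genes under the alternatives, 934 stayed on their side of the threshold, 38 lost and 18 gained the call. The number of family genes changed was 12 against parental, 14 against Ctrl, 5 between the controls and 11 against both. DESeq2 gave 13, 14, 6 and 12, and no filter beyond 1 count gave 14, 16, 6 and 13. The 14, 16 and 13 include SEMA5A and SEMA3G, which entered that fit through p53 KO libraries alone and control libraries alone. A log2 fold change past 1 left 3, 6, 0 and 2, and one past 1.5 left 1, 3, 0 and 1. Leaving out each library gave 10 to 17, 12 to 15, 2 to 7 and 9 to 13. With only the 2 groups compared in the fit, 17, 14, 2 and 12 genes changed. Pathway genes changed numbered 34 in that fit against parental cells, and 13 to 34 against parental, 19 to 31 against Ctrl and 8 to 19 between the controls with a library left out. The cause of these shifts was not tested. A window of 10 Mb moved 17 of 66 medians of surrounding genes by more than the SD between libraries, and the longest transcript, being shorter than the union of exons, raised every level per length, 54 of 66 by more than the SD.

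Libraries with the same replicate number did not deviate together (correlations -0.348 to 0.041). Those with different numbers gave -0.222 to 0.395, the highest for p53 KO replicate 3 with Ctrl replicate 1. With 3 libraries per group, the deviations within a group are tied to each other. The correlations therefore cannot settle whether the number pairs libraries or whether some share a batch. With the replicate block the counts of family genes were 11, 13, 2 and 10. SEMA4F against parental and SEMA6C against Ctrl cells lost their calls (adjusted p = 0.0717 and 0.0515), as did PLXNA1, NRP1 and SEMA3C between the controls (adjusted p = 0.056 to 0.0826). Values that rest on few counts, those of PLXNC1, SEMA6C and the genes not tested, are limited by depth.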
